A study of Mus musculus with 6 samples.

Results

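The sensors of microbial products in the gut epithelium were examined through 10 genes: the Toll-like receptor genes Tlr1, Tlr2, Tlr3, Tlr4, Tlr5 and Tlr9, the adaptor gene Myd88, the NOD receptor genes Nod1 and Nod2, and Tmem173, which encodes STING. They were chosen by gene symbol from 46078 genes in the count table, with earlier results of the aged and young comparison in view. Their values in that comparison are therefore a description: which of them the fit over all genes called is stated, but no p-value is given for them and nothing is read from the calls. RNA was measured in 6 libraries of small intestinal epithelium, from 3 aged mice (20 to 22 months) and 3 young mice (2 to 3 months), all untreated and of strain C57BL/6JRj. The tissue was the proximal small intestine. Cells were released with EDTA and trypsin and sorted as EpCam+ and CD45-, which keeps epithelial cells and removes leukocytes, and poly(A) RNA was sequenced with a kit that marks the strand. The labels give no genotype change, sex, batch or replicate number, so replicates carry numbers in the order of the records. Other assays of the study, in organoids and single cells, were not analysed here.

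Toll-like receptors recognise conserved microbial molecules. TLR1 pairs with TLR2 at the cell surface for bacterial lipopeptides, TLR4 responds to lipopolysaccharide and TLR5 to flagellin, while TLR3 and TLR9 sit in endosomes and detect double-stranded RNA and unmethylated CpG DNA. All of them except TLR3 signal through MYD88. NOD1 and NOD2 detect peptidoglycan fragments in the cytosol, and STING is switched on by the cyclic dinucleotide that cGAS makes when it meets cytosolic DNA. In the intestine the epithelium lies between these ligands and the tissue.

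The libraries held 45328055 to 55670388 counts in aged mice and 41479573 to 58989166 counts in young mice. A count of 0 allows up to 3 counts, which was 0.0539 to 0.0662 CPM (a count scaled by the size of its library) in aged and 0.0509 to 0.0723 CPM in young libraries, counting error only. Epcam stood at 1506, 1502 and 1523 CPM in aged and 1664, 1635 and 1669 CPM in young libraries. Ptprc, which encodes CD45, stood at 0.275, 0.219 and 0.196 CPM in aged and 0.25, 0.287 and 0.168 CPM in young libraries. The sorted cells thus carried the epithelial marker at a high level and the leukocyte marker at a very low one.

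Part of the count of Tlr1 is uncertain because of shared sequence. Tlr1 (chromosome 5, 64924679 to 64933563, minus strand, GRCm38) and Tlr6, a receptor gene that also pairs with Tlr2, are neighbours 18.5 kb apart. Of the 3332 stretches of 50 bases in Tlr1 exons, 513 (15.4%) also occur, on either strand, in transcripts of 307 other genes. Tlr6 shares the most, 454 (13.6%). A read that lies within a shared stretch cannot be assigned by its sequence. The longest identical run in the coding sequences is 229 bases, from base 1468 to 1696 of the 2388 coding bases of Tlr1 and from 1507 to 1735 of the 2421 of Tlr6, and it is shown because it lies in both genes unchanged.
Tlr1 and Tlr6, shared run: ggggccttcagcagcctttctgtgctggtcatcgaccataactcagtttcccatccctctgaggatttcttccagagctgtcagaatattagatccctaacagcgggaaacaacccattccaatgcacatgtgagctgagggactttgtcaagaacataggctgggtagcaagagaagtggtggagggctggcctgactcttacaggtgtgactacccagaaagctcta

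Promoters were read for 8 of the 10 genes from RefSeq (GRCm38.p6), 250 bases before to 50 after each start, which gave 10 promoters because Tlr1 and Nod1 have a pair of starts each. Both strands were searched for a pair of the GAAA repeats found in interferon response elements, set apart by any 2 bases, and for the NF-kB motif. These motifs occur in 3.44% and 8.46% of 32851 promoters of the same length. The GAAA pair was found in 1 of the 10 promoters and NF-kB in 2, and a match describes letters, not a site in use. The sequences below carry these matches, with the motif letters in capitals.
Myd88, chr9:119339969-119340268, minus strand, GAAA pair at -40: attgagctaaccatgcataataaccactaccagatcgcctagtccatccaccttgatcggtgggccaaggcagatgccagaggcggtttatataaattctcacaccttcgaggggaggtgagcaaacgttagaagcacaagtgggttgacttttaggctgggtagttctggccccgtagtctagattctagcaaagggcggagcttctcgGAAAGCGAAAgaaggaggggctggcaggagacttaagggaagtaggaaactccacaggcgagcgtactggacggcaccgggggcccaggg
Tlr2, chr3:83841559-83841858, minus strand, NF-kB at -173, at -172 (overlapping it) and at -8: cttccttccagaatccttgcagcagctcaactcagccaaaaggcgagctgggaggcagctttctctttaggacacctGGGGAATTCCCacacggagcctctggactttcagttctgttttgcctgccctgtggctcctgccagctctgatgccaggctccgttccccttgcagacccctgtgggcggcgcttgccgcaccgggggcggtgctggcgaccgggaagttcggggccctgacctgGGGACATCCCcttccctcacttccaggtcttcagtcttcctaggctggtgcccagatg
Tlr3, chr8:45410331-45410630, minus strand, NF-kB at -211: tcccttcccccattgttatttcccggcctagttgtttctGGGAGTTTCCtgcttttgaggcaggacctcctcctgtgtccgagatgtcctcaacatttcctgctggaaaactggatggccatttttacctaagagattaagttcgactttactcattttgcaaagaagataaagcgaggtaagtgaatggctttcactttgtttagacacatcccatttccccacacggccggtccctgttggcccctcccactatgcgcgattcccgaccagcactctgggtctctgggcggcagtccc
Neither motif was found in the promoter windows of Tlr1, Tlr5, Tlr9, Nod1 and Nod2, which says only that these letters are not in those windows.

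Of the 3 cell-surface receptors among the 10 genes that were tested, Tlr1 had the largest fold change. It stood at 19.7, 24.3 and 16.1 CPM in aged libraries and 7.03, 7.42 and 5.93 CPM in young libraries. The lowest aged library lay above the highest young one. The means were 20.0 ± 4.13 CPM in aged and 6.79 ± 0.774 CPM in young libraries (SD, n = 3 each), a log2 fold change of 1.55 ± 0.17 (SE) or 2.94-fold. Tlr6, on the same chromosome, held few counts, with 19, 14 and 24 in aged and 2, 7 and 9 in young libraries, and its log2 fold change was 1.59 ± 0.48 with no call (adjusted p = 0.225 over all tested genes, edgeR quasi-likelihood test). Tlr1 held 931, 1108 and 901 counts in aged and 309, 439 and 247 in young libraries, far above those of Tlr6. Since the pair shares sequence, some reads of one may be counted for the other, which weighs more on the small counts of Tlr6. This was not tested. Tlr6 was named after its values were seen.

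Tlr2 (chromosome 3, 83836272 to 83841767, minus strand), the partner of TLR1 at the membrane, stood at 12.7, 10.4 and 7.11 CPM in aged and 7.96, 7.32 and 8.98 CPM in young libraries. The groups overlapped, and aged replicate 3 lay below every young library. The means were 10.1 ± 2.8 CPM in aged and 8.09 ± 0.835 CPM in young libraries, a log2 fold change of 0.31 ± 0.20. The ratio of Tlr1 to Tlr2, both as TPM (counts per exon length, scaled to the same total in every library), was 1.40, 2.11 and 2.03 in aged and 0.795, 0.913 and 0.595 in young libraries. Tlr1 thus lay above Tlr2 in every aged library and below it in every young one, with merged exon lengths of 3346 and 3014 bases. In CPM, which uses no length, Tlr1 lay just above Tlr2 in young replicate 2 (7.42 against 7.32). Their longest transcripts are nearly equal, at 3025 and 3014 bases, so the order in that library depends on the length used.

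The other surface receptors were close to the floor of counting. Tlr4 (chromosome 4, 66827584 to 66930284, plus strand) had 1, 1 and 3 counts in aged and 0, 1 and 0 counts in young libraries, and it did not pass the filter on low counts. Tlr5 (chromosome 1, 182954788 to 182976044, plus strand) had 5, 6 and 25 counts in aged and 17, 25 and 17 counts in young libraries. That is 0.106, 0.132 and 0.446 CPM in aged and 0.387, 0.423 and 0.408 CPM in young libraries. Aged replicates 1 and 2 lay below every young library and aged replicate 3 above all of them, so the groups overlapped. The log2 fold change was -0.78 ± 0.51, and it was -1.76 without aged replicate 3. Tlr5 passed the filter through the young libraries and aged replicate 3. In bulk libraries fewer cells of a type and less RNA per cell cannot be told apart. Flagellin receptor RNA is best known in Paneth cells of the mouse small intestine, and the summed level of 9 Paneth cell genes was 6886 to 7473 CPM in aged and 9385 to 17338 CPM in young libraries, with Defa17 and Defa30 lower (adjusted p = 0.0373 and 0.048). Lyz1, a Paneth cell lysozyme, stood at 2964, 2756 and 2907 CPM in aged and 4558, 3316 and 5902 CPM in young libraries, with no overlap, and was not called (log2 fold change -0.68, adjusted p = 0.154). DESeq2 called 5 of the 9 Paneth cell genes and limma-voom 2. All 9 Paneth cell genes had a log2 fold change below 0. For 5 of them all aged libraries lay below all young ones, where 7.49% of all tested genes did. The lowest sum, 6886 CPM, was that of aged replicate 3, the library in which Tlr5 was highest. Their part in the Tlr5 values was not tested.

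**Figure D1:**
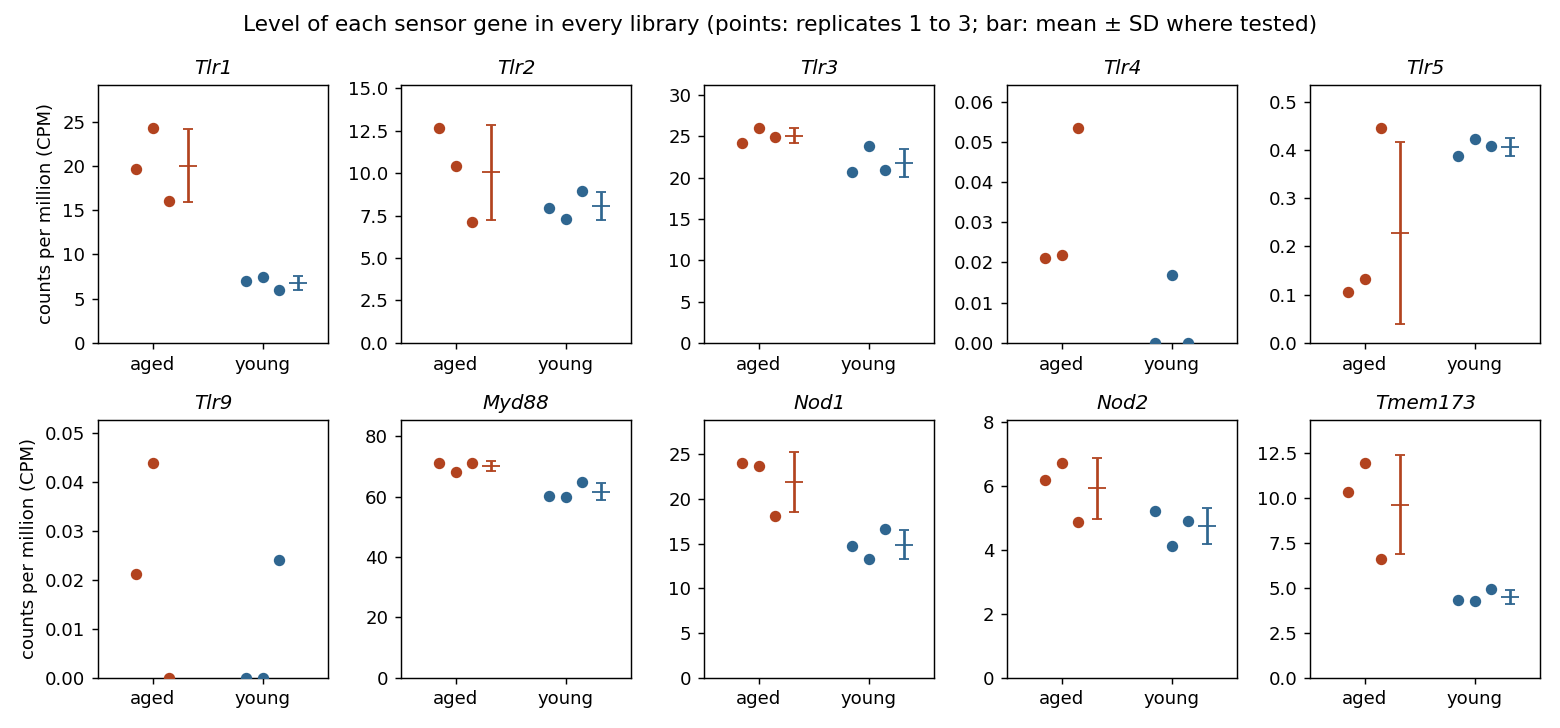
Level of each of the 10 genes in every library, in CPM, with aged libraries left of young libraries; points are replicates 1 to 3 and bars the mean ± SD (n = 3), left out for Tlr4 and Tlr9, which held 5 and 3 counts in all aged libraries together. Each panel has its own axis from 0. The aged points of Tlr1 and Tmem173 lie above every young point, while those of Tlr2, Tlr5 and Nod2 overlap them.

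Of the endosomal receptors, only Tlr3 was measured at a level that could be compared. Tlr3 (chromosome 8, 45395665 to 45411080, minus strand) stood at 24.21, 26.01 and 24.9 CPM in aged and 20.72, 23.77 and 20.96 CPM in young libraries. All aged libraries lay above all young ones, by a small margin. The means were 25.0 ± 0.91 CPM in aged and 21.8 ± 1.7 CPM in young libraries, 14.7% higher, with a log2 fold change of 0.20 ± 0.09. Its exons share 381 bases with Gm45542 on the opposite strand, which was not analysed here. Tlr9 (chromosome 9, 106222598 to 106226883, plus strand) had 1, 2 and 0 counts in aged and 0, 0 and 1 counts in young libraries and did not pass the filter.

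Myd88 (chromosome 9, 119335934 to 119341411, minus strand), the adaptor that most of these receptors share, was the most abundant of the 10 per exon length in both ages. It stood at 71.2, 68.2 and 71.1 CPM in aged and 60.3, 59.9 and 64.9 CPM in young libraries. The groups did not overlap. The means were 70.2 ± 1.68 CPM in aged and 61.7 ± 2.77 CPM in young libraries, 13.8% higher, with a log2 fold change of 0.19 ± 0.07. Myd88 shares 290 exon bases with Acaa1a, a peroxisomal thiolase gene on the opposite strand, whose log2 fold change was -0.02. For the strand setting of the counting, a value is not given in the sources used here. How far reads of this pair were separated is therefore unknown. The ratio of Myd88 to Ticam1, which encodes the adaptor of TLR3, was 1.06, 1.16 and 1.12 in aged and 0.978, 1.01 and 1.07 in young libraries on the TPM scale, and these ranges overlapped.

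Nod1 differed more than Nod2 in the size of its fold change. Nod1 (chromosome 6, 54923949 to 54972612, minus strand) stood at 24.0, 23.6 and 18.0 CPM in aged and 14.8, 13.3 and 16.6 CPM in young libraries. The groups did not overlap, and the margin was between aged replicate 3 and young replicate 3. The means were 21.9 ± 3.36 CPM in aged and 14.9 ± 1.66 CPM in young libraries, a log2 fold change of 0.56 ± 0.14 or 1.47-fold. Nod2 (chromosome 8, 88647315 to 88688474, plus strand), whose RNA is best known in Paneth cells and myeloid cells, stood at 6.19, 6.73 and 4.87 CPM in aged and 5.21, 4.11 and 4.92 CPM in young libraries. These groups overlapped, with aged replicate 3 between young libraries. The means were 5.93 ± 0.96 CPM in aged and 4.75 ± 0.571 CPM in young libraries, a log2 fold change of 0.32 ± 0.17. The difference between the fold changes of Nod1 and Nod2 was not tested. The TPM ratio of Nod1 to Nod2 was 3.83, 3.47 and 3.66 in aged and 2.8, 3.19 and 3.33 in young libraries, so every aged library lay above every young one.

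Tmem173 (chromosome 18, 35733679 to 35740554, minus strand), the gene of STING, stood at 10.35, 11.97 and 6.6 CPM in aged and 4.3, 4.26 and 4.92 CPM in young libraries. All aged libraries lay above all young ones, with aged replicate 3 the nearest. The means were 9.64 ± 2.76 CPM in aged and 4.49 ± 0.371 CPM in young libraries, a log2 fold change of 1.10 ± 0.21 or 2.14-fold. Mb21d1, which encodes cGAS, averaged 14.1 ± 1.93 TPM in aged and 11.9 ± 3.11 TPM in young libraries. The TPM ratio of Tmem173 to Mb21d1 was 0.965, 0.885 and 0.554 in aged and 0.416, 0.323 and 0.582 in young libraries. Aged replicate 3 lay below young replicate 3, so this ratio overlapped between the ages.

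Of the 10 genes, 8 passed the filter on low counts. At an adjusted p below 0.05 in the edgeR fit over 14923 genes, 2 were higher in aged libraries (Tlr1 and Tmem173), where 0.623% of all tested genes were called higher, and 0 were lower, where 0.784% were called lower. At an unadjusted p under 0.05 the counts were 4 higher, where 3.9% of all tested genes were, and 0 lower, where 5.33% were. DESeq2 called 3 higher (1.38% of all) and 0 lower (1.85%), and limma-voom called 1 higher (0.523%) and 0 lower (0.677%). The aged libraries lay above all young libraries for 5 of the 8 (Tlr1, Tlr3, Myd88, Nod1 and Tmem173), where 6.3% of tested genes did, and below them for 0, where 7.49% did. Since the genes were chosen with this contrast known, these counts support nothing. Tmem173 was no longer called with upper-quartile scaling, with a minimum of 1 CPM in 3 libraries, with limma-voom, or when any library other than aged replicate 3 was left out. The median log2 fold change of the 8 was 0.32, beside 0.01 over all tested genes.

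The libraries of a group did not move evenly. The median over the 8 genes of the log2 difference from the young mean was 0.52, 0.43 and 0.20 in aged and -0.03, -0.06 and 0.06 in young libraries. Aged replicate 3 was the lowest aged library for 5 of the 8: Tlr1, Tlr2, Nod1, Nod2 and Tmem173. Its mitochondrial share of counts was 1.54%, against 2.88% and 2.04% in the other aged libraries, while the young libraries had 3.69%, 2.07% and 1.48%. Its part in these values was not tested.

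**Figure D2:**
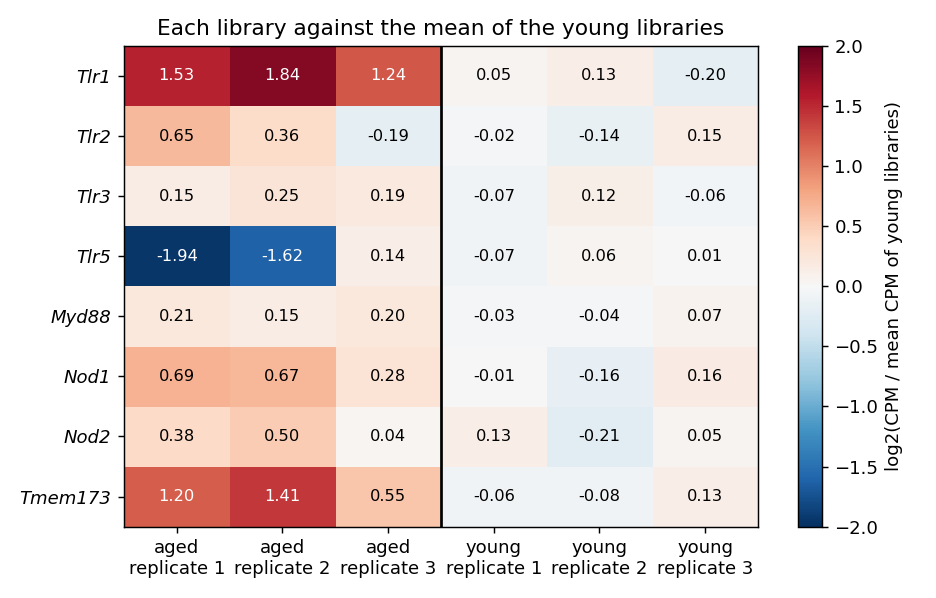
Log2 ratio of the CPM in each library (columns, aged left of young) to the mean CPM of the young libraries, for the 8 tested genes (rows). Aged replicates 1 and 2 reach 1.53 and 1.84 for Tlr1 and -1.94 and -1.62 for Tlr5, and aged replicate 3 is nearer 0 for 6 of the 8 genes.

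Levels of different genes were compared on the TPM scale. In aged libraries the order from high to low was Myd88 (87.3 ± 3.79), Tlr1 (19.1 ± 3.8), Tlr3 (15.4 ± 0.957), Nod1 (13.8 ± 1.72), Tmem173 (11.2 ± 3.04), Tlr2 (10.6 ± 2.58), Nod2 (3.78 ± 0.545) and Tlr5 (0.155 ± 0.134), with Tlr9 and Tlr4 below. From Tlr1 to Tlr2 each neighbour's range over the libraries overlapped the next, so that middle order was not resolved. In young libraries it was Myd88 (73.0 ± 2.84), Tlr3 (12.8 ± 1.5), Nod1 (8.92 ± 0.75), Tlr2 (8.17 ± 0.633), Tlr1 (6.2 ± 0.888), Tmem173 (4.99 ± 0.345), Nod2 (2.88 ± 0.248) and Tlr5 (0.259 ± 0.0205). There the ranges of Nod1 and Tlr2, of Tlr1 and Tmem173 and of Tlr9 and Tlr4 overlapped, and the other neighbours were separate. Tlr1 stood at rank 2 of 10 in aged and rank 5 in young libraries.

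**Figure D3:**
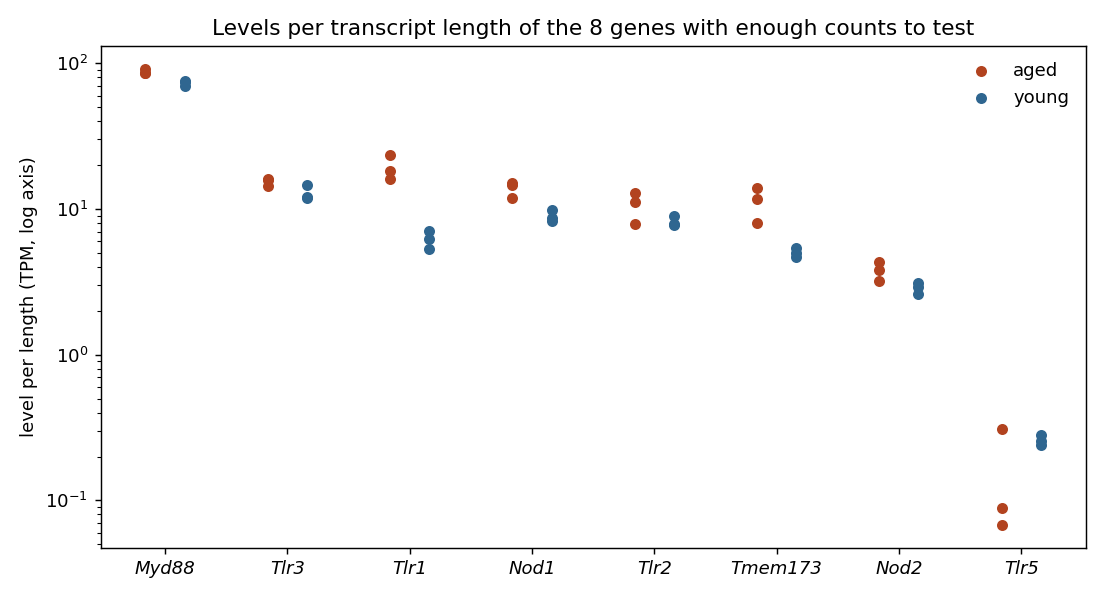
Level per exon length (TPM, log axis) of the 8 tested genes, with a point for each library and the aged libraries left of the young ones. Myd88 lies apart at the top in both ages, Nod2 and Tlr5 lie lowest, and the other genes spread over 4.67 to 23.3 TPM.

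Likeness between genes was described by Pearson's r of log2 CPM over the 6 libraries, among 107 sensor and pathway genes. The points share their library and age group, so r is given with no p. Tlr1 was most like Tmem173 (0.941), Nod1 most like Nlrx1 (0.974), Nod2 most like Cd14 (0.985) and Tmem173 most like Reg3g (0.976). Tlr2 was most like Ikbke (0.948), Tlr3 most like Irgm1 (0.931), Myd88 most like Tlr6 (0.940) and Tlr5 most like Traf6 (0.897). Among the sensor genes themselves the closest pair was Nod1 and Tmem173 (0.973), and Tlr5 was opposed to each of the others, from -0.926 with Tlr2 to -0.519 with Tlr3. Tlr5 held only 5 to 25 counts in a library and Tlr6 only 2 to 24, so every r with these genes rests on low counts.

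Around the sensors, 119 pathway genes in 7 lists were examined in the same fit, of which 100 passed the filter. In aged libraries 1 of the 100 was higher, where 0.623% of all tested genes were, and 0 were lower, where 0.784% were. Their median log2 fold change was 0.07, beside 0.01 over all tested genes. In the list of NOD signalling, with 15 of 16 genes tested, 14 had a fold change above 0 and the median was 0.14. Its called gene was Irgm1, an interferon-induced GTPase of autophagy, at 58.9, 86.8 and 84.2 CPM in aged and 36.1, 45.3 and 34.9 CPM in young libraries. The groups did not overlap. The log2 fold change was 0.98 ± 0.16 (adjusted p = 0.0233), and the adjusted p was 0.0561 with no filter on low counts. Leaving out a library gave an edgeR adjusted p of 0.015, 0.0784 and 0.0529 for aged replicates 1, 2 and 3. For young replicates 1, 2 and 3 it was 0.112, 0.0321 and 0.114. On all 6 libraries the adjusted p of Irgm1 was 3e-07 with DESeq2 and 0.0313 with limma-voom. At an unadjusted p under 0.05 the NOD signalling list had 4 genes higher and 0 lower, and DESeq2 and limma-voom each called 1 of it.

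The other lists held no call in the edgeR fit. Among the 8 tested of 15 other Toll-like receptors, co-receptors and chaperones, the median log2 fold change was -0.01, and Hsp90b1, the chaperone that folds the receptors, stood at 950 ± 134 CPM in aged and 970 ± 238 CPM in young libraries (adjusted p = 0.983). Unc93b1, which carries endosomal receptors to their compartment, stood at 84.1 ± 7.0 CPM in aged and 74.1 ± 8.46 CPM in young libraries (adjusted p = 0.676). At an unadjusted p under 0.05 this list had 2 genes higher and 1 lower, DESeq2 called 1 of it and limma-voom 0.

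All 20 adaptors and kinases were tested, with a median of 0.05, and at an unadjusted p under 0.05 there were 0 higher and 2 lower, with 0 called by DESeq2 and by limma-voom. Irak1, a kinase recruited by MYD88, stood at 138 ± 5.02 CPM in aged and 132 ± 3.08 CPM in young libraries (adjusted p = 0.883), and Tab2 at 116 ± 3.97 CPM in aged and 116 ± 7.75 CPM in young libraries (adjusted p = 0.991). Of 12 brakes on the receptors 11 were tested, with a median of 0.09, 1 higher and 1 lower at an unadjusted p under 0.05, and 0 called by DESeq2 and by limma-voom. Nfkbia, the inhibitor of NF-kB, stood at 266 ± 63.8 CPM in aged and 235 ± 14.3 CPM in young libraries (adjusted p = 0.845), and Tnfaip3, the ubiquitin-editing enzyme A20, at 123 ± 41.9 CPM in aged and 92.9 ± 26.3 CPM in young libraries (adjusted p = 0.827).

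Of 14 other NOD-like receptors 11 were tested, with a median of -0.05, 1 higher and 0 lower at an unadjusted p under 0.05, and 0 called by DESeq2 and by limma-voom. Nlrp6, an inflammasome sensor of the gut epithelium, stood at 534 ± 20.7 CPM in aged and 582 ± 15.0 CPM in young libraries (adjusted p = 0.679), and Naip6, of the family that detects flagellin and secretion needles, at 75.4 ± 7.13 CPM in aged and 85.3 ± 5.43 CPM in young libraries (adjusted p = 0.632). All 20 genes of cytosolic nucleic acid sensing were tested, with a median of 0.07, 3 higher and 0 lower at an unadjusted p under 0.05, 1 called by DESeq2 and 0 by limma-voom. Irf3, the transcription factor that STING switches on, stood at 116 ± 13.4 CPM in aged and 117 ± 10.2 CPM in young libraries (adjusted p = 0.987), and Trim25 at 169 ± 3.58 CPM in aged and 171 ± 9.55 CPM in young libraries (adjusted p = 0.972).

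Products known to be induced downstream of these sensors were 22 genes, of which 15 were tested. Their median log2 fold change was 1.02 and 12 of 15 lay above 0, but 0 were called. At an unadjusted p under 0.05 there were 5 higher, where 3.9% of all tested genes were, and 0 lower, where 5.33% were. DESeq2 called 2, where it called 1.38% of all tested genes higher and 1.85% lower, and limma-voom called 0. Reg3g, an antibacterial lectin, stood at 632, 887 and 282 CPM in aged and 212, 196 and 278 CPM in young libraries, with a log2 fold change of 1.39 ± 0.42 (adjusted p = 0.314). Aged replicate 3 lay close to young replicate 3. Pigr, the carrier of IgA, stood at 8751 ± 804 CPM in aged and 8649 ± 1148 CPM in young libraries (adjusted p = 0.987). Without aged replicate 3, Reg3g, Tnf and Lcn2 were called higher. Ccl2 and Ifnb1 were at 0 counts in all 6 libraries.

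**Figure D4:**
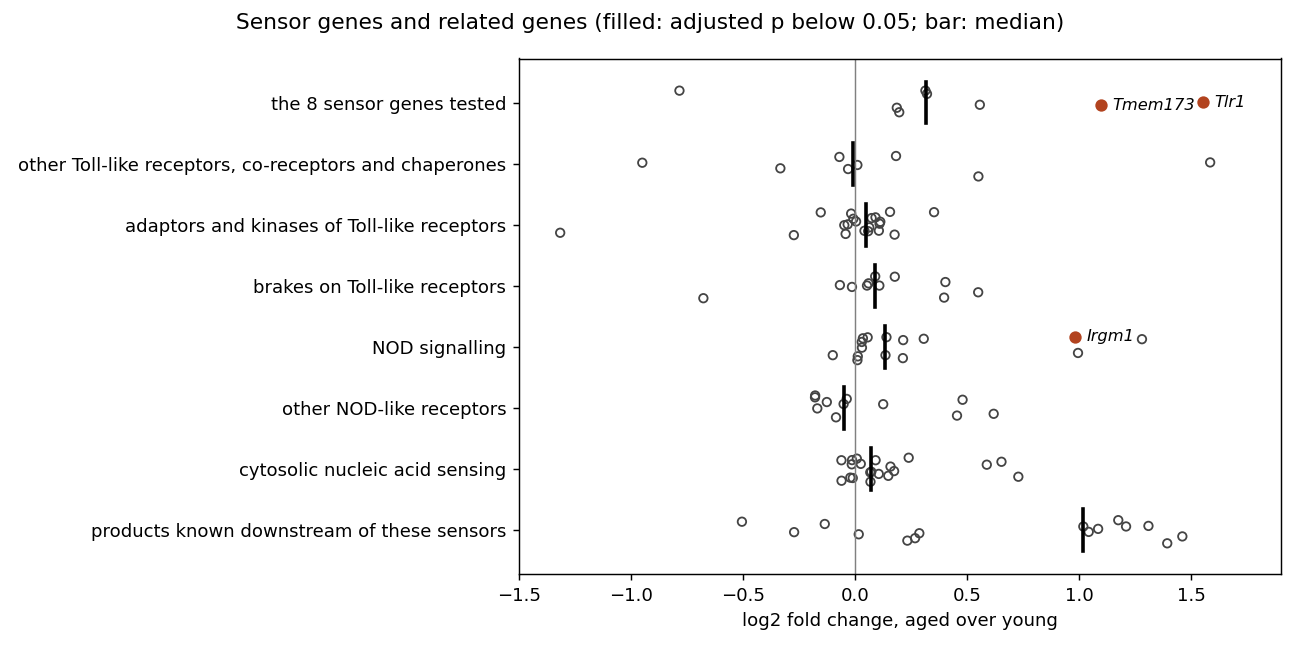
Log2 fold change, aged over young, of the tested genes of each list (rows), with the median as a bar and genes with an adjusted p below 0.05 filled and named. The called genes are Tlr1, Tmem173 and Irgm1, and the median of the products downstream lies at 1.02 with no filled point.

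Markers of other cells that can express these sensors were read in the same libraries. The 18 genes of macrophages, dendritic cells and neutrophils summed to 37.3 to 43.9 CPM in aged and 26.9 to 34.4 CPM in young libraries, 7 of them were tested and 1 was higher. That gene was Itgam, which encodes CD11b, at 20.3, 22.2 and 22.4 CPM in aged and 11.8, 13.2 and 12.7 CPM in young libraries (adjusted p = 0.00726). DESeq2 and limma-voom each called 1 gene of this list. S100a8, S100a9 and Ly6g of it were at 0 counts in all 6 libraries. Adgre1, the macrophage marker F4/80, had 1, 0 and 0 counts in aged and 1, 0 and 0 counts in young libraries.

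Of 14 T lymphocyte genes 5 were tested and 1 was higher, Itgae, which encodes CD103 (edgeR adjusted p = 0.0129). DESeq2 and limma-voom each called 1 of this list. The 14 genes summed to 4.08 to 9.0 CPM in aged and 4.06 to 4.75 CPM in young libraries. The 8 B and plasma cell genes summed to 2.83 to 3.97 CPM in aged and 2.52 to 3.03 CPM in young libraries, the 10 of fibroblasts and smooth muscle to 1.8 to 2.5 CPM in aged and 2.8 to 3.48 CPM in young libraries, and the 6 of endothelium to 8.45 to 8.81 CPM in aged and 5.88 to 9.15 CPM in young libraries. These 3 lists held 0 calls by edgeR, 0 at an unadjusted p under 0.05, and 0 by DESeq2 and limma-voom, and Lum, Cdh5 and Kdr were at 0. The 4 general leukocyte genes summed to 0.374 to 0.76 CPM in aged and 0.387 to 0.6 CPM in young libraries. The myeloid sum was higher in every aged library than in any young one, and the T lymphocyte sums overlapped. Without Itgam, a step chosen after its values were seen, the other 17 myeloid genes summed to 20.7, 21.7 and 14.9 CPM in aged and 15.1, 21.2 and 16.1 CPM in young libraries, which overlap. Most of that remainder was Cd68, at 15.7, 17.0 and 9.52 CPM in aged and 9.53, 17.2 and 9.39 CPM in young libraries. Lyz2, of macrophages and neutrophils, was at 1.96, 2.04 and 2.19 CPM in aged and 2.64, 2.3 and 4.03 CPM in young libraries. Their part in the values of Tlr1, Tlr2, Nod2 and Tmem173 was not tested.

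Within the epithelium, Tff3 of 7 goblet cell genes was lower (edgeR adjusted p = 0.0498). All 7 had a log2 fold change below 0, with a median of -0.46. At an unadjusted p under 0.05, 5 of the 7 were lower, where 5.33% of all tested genes were. DESeq2 called 2 of this list and limma-voom 0. Gip and Sst of 8 enteroendocrine genes were also lower (edgeR adjusted p = 0.0285 and 0.0433). The enteroendocrine list was mixed, with 4 of 8 fold changes above 0, a median log2 fold change of 0.04, and 1 gene higher and 3 lower at an unadjusted p under 0.05. DESeq2 called 3 of the enteroendocrine genes and limma-voom 2. Chga and Chgb, the chromogranin genes, had log2 fold changes of 0.20 and 0.23 (edgeR adjusted p = 0.69 and 0.662). The 6 tested tuft cell genes, the 6 crypt base stem cell genes and the 8 absorptive enterocyte genes held 0 calls by edgeR. Of their log2 fold changes 0, 2 and 1 lay above 0, with medians of -0.35, -0.11 and -0.29. At an unadjusted p under 0.05, 2, 0 and 2 of them were lower. DESeq2 called 0, 0 and 1 of them, and limma-voom called 0. The 7 general epithelial genes summed to 7415 to 8086 CPM in aged and 7761 to 8259 CPM in young libraries, with 0 calls by edgeR, DESeq2 and limma-voom and 0 at an unadjusted p under 0.05.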

How the data were processed

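RNA of sorted epithelial cells from 3 aged and 3 young mice was analysed from the raw counts per gene that the authors deposited. Per the submitters' processing notes the build was GRCm38. Those notes name, with no role or order, featureCounts 1.6.4, DESeq2 1.28.1, STAR, cutadapt 2.5, HISAT2 2.1.0, StringTie 2.0, FastQC 0.11.8, Picard, deepTools 3.3.1, SAMtools 1.9, Trim Galore 0.6.4 and MultiQC 1.7. The annotation release was not given in the sources used here, nor was the strand setting. Counts of overlapping genes are therefore uncertain.

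Genes were kept by filterByExpr (minimum count 10), which left 14923, scaled by TMM and tested with the robust quasi-likelihood test of edgeR 4.0.16 (R 4.3.3) on age, with all 6 libraries in the fit. Adjusted p-values are Benjamini-Hochberg values over all tested genes, with a threshold of 0.05. A standard error is the size of the log2 fold change over the square root of its F statistic. The labels do not tie a library to a mouse, and 1 library per mouse was taken from the design text. The p-values set the difference between the ages against the variation between libraries of the same age. TPM uses merged exon lengths of GENCODE M21, from which positions were also taken (1-based), and it held 45229 of the gene IDs but lacked 849.

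The members and lists were chosen with earlier results of these data known. Named were all 10 members, the called genes of each list or else its 2 most abundant tested genes, and the gene most like each member. Acaa1a, Tlr6, Tnf, Lcn2, Ticam1, Mb21d1, Lyz1, Lyz2, Cd68, Chga, Chgb, Adgre1 and the genes at 0 were added after values were seen. The alternatives were DESeq2 1.42.0, limma-voom (limma 3.58.1), RLE, upper-quartile and total-count scaling, other filters, non-robust estimation and leaving out each library. The edgeR test was run on simulated counts with known changes.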

Additional observations from a re-analysis of the deposited data

How the results depend on the processing

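No member reversed its direction in any of 14 alternatives (13 for Tlr5, which the 1 CPM minimum removed), and members called lower stayed at 0, though the choice of members from this contrast can fix such directions. Members called higher numbered 1 with upper-quartile scaling, with a minimum of 1 CPM in 3 libraries and with limma-voom, against 2 in the report, and 1 to 3 when each library was left out. Nod1 was also called with no filter, with DESeq2 and without aged replicate 3. The log2 fold change of Tlr1 ran from 1.39 to 1.69 and that of Tmem173 from 0.91 to 1.31. Tlr2 ran from 0.11 without aged replicate 1 to 0.51 without aged replicate 3, and Tlr5 from -1.76 without aged replicate 3 to -0.45 without aged replicate 1. Genes called higher, 93 in the report, numbered 168 with no filter and 206 with DESeq2, and 35 (without aged replicate 2) to 135 (without aged replicate 3) when each library was left out. Genes called lower, 117 in the report, numbered 245 with no filter, 67 with the 1 CPM minimum and 276 with DESeq2, and 30 (without aged replicate 1) to 135 (without aged replicate 3) when each library was left out. Called pathway genes outside the members numbered 5 with DESeq2 (Lbp, Irgm1, Dhx58, Tnf and Duoxa2) and 0 to 3 when each library was left out, against 1. With lengths of the longest transcript, 4 of the 10 genes moved in the order of levels over all 6 libraries. The cause was not tested for any of these. No paired analysis was possible because the labels give no replicate numbers. At 3 libraries a group, and with Tlr4 and Tlr9 at 5 and 3 counts in all aged libraries together, no difference in those genes was detectable at this depth.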

Other observations

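The genes next to the sensors on their chromosomes were read in the same fit. Among the tested neighbours, at most a pair on each side of each sensor gene, the smallest edgeR adjusted p was 0.184, for Nkd1 next to Nod2 (log2 fold change -0.56). Next to Tlr1, Tlr6 was the nearest, at a log2 fold change of 1.59 (edgeR adjusted p = 0.225), and beyond it and on the other side Fam114a1 had -0.01 and Klf3 0.06. Next to Nod1, Ggct had 0.22 and Gars 0.08 on one side, and Znrf2 had -0.11 and Mturn -0.34 on the other. Next to Nod2, Snx20, a sorting nexin gene 11.2 kb away, had 0.45 ± 0.14 (edgeR adjusted p = 0.253), at 33.6, 27.0 and 25.8 CPM in aged and 21.9, 17.5 and 23.9 CPM in young libraries, so that the groups did not overlap, while Cyld, a deubiquitinase gene 8.55 kb away on the other side, had 0.06. Next to Tmem173, 1700066B19Rik, 2.81 kb away, had -0.05. Ecscr, known as an endothelial gene, lies on the same side within the span of 1700066B19Rik. It had 0.87 ± 0.28 (edgeR adjusted p = 0.268). On the other side Ube2d2a had 0.08 and Cxxc5 -0.56 (edgeR adjusted p = 0.365). These neighbours were named after their values were seen.

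Co-receptor and relay genes of the sensors were also read. Cd14, the co-receptor for lipopolysaccharide, stood at 29.0, 33.4 and 19.4 CPM in aged and 19.81, 15.01 and 20.98 CPM in young libraries, and the groups overlapped (edgeR adjusted p = 0.386). Ly96, which encodes the MD-2 subunit that TLR4 needs, averaged 7.08 ± 1.31 TPM in aged and 7.05 ± 0.343 TPM in young libraries, while Tlr4 itself was near 0. Ripk2, the kinase of NOD1 and NOD2, averaged 7.6 ± 1.4 TPM in aged and 6.23 ± 0.416 TPM in young libraries. Tnf stood at 38.7, 36.7 and 15.9 CPM in aged and 12.8, 11.8 and 12.2 CPM in young libraries, with a log2 fold change of 1.31 ± 0.31 (edgeR adjusted p = 0.131). Aged replicate 3 was the lowest aged library for Cd14 and Tnf as well.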
